A study of Mus musculus with 10 samples.

Results

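Haemoglobin and erythroid genes, the genes by which red blood cells make and carry haemoglobin, were measured here in cells purified as neutrophils. A list of 8 genes was followed: the adult alpha-globin genes Hba-a1 and Hba-a2, the adult beta-globin genes Hbb-bs and Hbb-bt, Alas2, Slc4a1, Ahsp and Bpgm. Gene symbols were matched to the Ensembl identifiers of the expression table through GENCODE for GRCm39. Of the 8 genes, 7 had a row among the 28185 genes of the table, and all 7 were among the 11549 genes tested, whose mean reached 10 normalized counts. The identifier of Ahsp, which encodes the chaperone of free alpha-globin, matched no row, and Ahsp was not analysed here.

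The libraries were RNA-seq of Ly6G+ cells from male C57Bl/6J mice of 12 to 16 weeks, and every mouse had its left coronary artery (LCA) ligated to cause a myocardial infarction (MI). Cells were taken on day 3 after ligation from the digested left ventricle below the ligature or from blood drawn by cardiac puncture, and were held on magnetic columns by antibody beads against Ly6G, a surface protein of mouse neutrophils. The 4 groups were MI (3 cardiac libraries, 13, 19 and 20, without cell treatment), MI + MSC (3 cardiac libraries, 15, 17 and 18, with syngeneic mouse mesenchymal stromal cells injected under the skin at 3 sites after ligation), Blood (2 libraries, 21 and 22, without cell treatment) and Blood + MSC (2 libraries, 23 and 24, with the same injection). No group was without infarction. The methods name the single animal as the experimental unit, but the labels do not say which mouse gave each library or tie heart to blood samples, and p-values measure the spread between these libraries.

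Mature mammalian red cells carry haemoglobin, a tetramer of alpha- and beta-globin chains that each hold a haem group. Globin and haem are made while the red cell precursor still transcribes its genes, and in mice the young reticulocytes that enter the blood have no nucleus but still hold globin messenger RNA, which is lost as they mature. Neutrophils are not known as haemoglobin producers. A bulk measurement cannot tell fewer cells of a type from less RNA per cell, which holds for every level below.

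Library depth ranged from 148594 reads on genes in MI 13 to 8602711 in Blood + MSC 24, and 1 read was worth 8.40 normalized counts in MI 13 and 7.07 in Blood 21 but at most 2.30 in any other library. All 12 neutrophil markers had reads in 9 of the 10 libraries and 11 had in MI 13, with summed levels of 2547 to 13564 normalized counts in cardiac and 16764 to 53435 in blood libraries. Macrophage markers summed to 4496 to 17952 in cardiac and 10725 to 22122 in blood libraries, and muscle markers to 3265 to 24896 and 22.6 to 63.6. The cardiac libraries thus also held RNA of other cells, and these sums do not give shares of cells. Blood 21 stood apart from the other blood libraries: its 12 platelet markers summed to 31929 normalized counts against 1232 to 1699 in the other 3, its 10 endothelial markers to 742 against 44.7 to 71.5, and only 2 of its 5 B cell markers had a read. Each blood library is therefore given apart below.

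The alpha-globin genes lie together on chromosome 11 of GRCm39, Hba-a1 at chr11:32233186-32234504 and Hba-a2 at chr11:32246168-32247320, both on the plus strand. The beta-globin genes lie together on the minus strand of chromosome 7, Hbb-bs at chr7:103475730-103482989 and Hbb-bt at chr7:103461727-103465047. Alas2 lies at chrX:149330371-149353634, Slc4a1 at chr11:102239650-102257029 on the minus strand and Bpgm at chr6:34453142-34484029. The globin genes of each pair are close copies. The canonical transcripts of Hba-a1 and Hba-a2 aligned with 87.5% identity, and 81.8% of all 100-base stretches of Hba-a2 occurred whole in Hba-a1. For Hbb-bs and Hbb-bt the identity was 86.6%, and 54.7% of the 100-base stretches of Hbb-bt occurred in Hbb-bs. How reads were split within a pair is therefore uncertain, and sums over a pair are given where they matter.

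The 250 bases before the RefSeq start sites are shown for 4 of the members. Capitals mark each match on either strand to GATAA (the core of GATA factor motifs), CACCC (the CACCC box), CCAAT (the CCAAT box) or TATAA (the TATA box). These motifs are known from globin promoters. RefSeq promoters (GRCm38.p6 table) were found for 6 of the 8 members, and each was placed in GRCm39 by exact match. Those of Hba-a1 and Hba-a2 matched chromosome 11 at 2 places each, and the match nearest to the gene itself was taken. The windows are chr11:32233422-32233671 for Hba-a1, chr7:103477136-103477385 (minus strand) for Hbb-bs, chr7:103463131-103463380 (minus strand) for Hbb-bt and chrX:149330163-149330412 for Alas2.
Hba-a1: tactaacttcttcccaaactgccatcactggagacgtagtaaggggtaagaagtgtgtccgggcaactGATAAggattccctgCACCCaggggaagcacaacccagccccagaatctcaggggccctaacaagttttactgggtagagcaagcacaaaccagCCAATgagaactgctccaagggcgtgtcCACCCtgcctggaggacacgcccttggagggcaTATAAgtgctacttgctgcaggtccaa
Hbb-bs: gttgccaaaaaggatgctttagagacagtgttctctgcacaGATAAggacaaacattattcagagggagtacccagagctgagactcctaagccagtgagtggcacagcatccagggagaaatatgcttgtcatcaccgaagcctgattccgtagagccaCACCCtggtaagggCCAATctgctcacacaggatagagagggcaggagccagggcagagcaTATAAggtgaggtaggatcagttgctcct
Hbb-bt: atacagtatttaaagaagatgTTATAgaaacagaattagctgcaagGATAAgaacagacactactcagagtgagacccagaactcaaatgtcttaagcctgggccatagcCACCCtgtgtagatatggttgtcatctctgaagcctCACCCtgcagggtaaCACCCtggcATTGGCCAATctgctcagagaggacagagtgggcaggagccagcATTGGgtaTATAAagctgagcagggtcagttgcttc
Alas2: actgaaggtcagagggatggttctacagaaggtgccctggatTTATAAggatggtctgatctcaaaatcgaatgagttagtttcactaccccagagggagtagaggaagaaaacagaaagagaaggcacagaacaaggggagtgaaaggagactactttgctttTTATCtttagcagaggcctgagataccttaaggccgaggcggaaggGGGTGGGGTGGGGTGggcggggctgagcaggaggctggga
The window of Hba-a2 (chr11:32246242-32246491) held the same letters shifted by 3 bases, with 247 of 250 bases in common. All 4 globin windows held all 4 motifs, whereas 0.968% of 32851 RefSeq promoters did. As the motifs were chosen from globin promoters and the copies are alike, this count is a description and no test. The part of the motifs in the levels was not tested. Of those promoters 52.0% held the CACCC box, 33.8% the CCAAT box, 22.6% the GATA motif and 22.8% the TATA box letters. In the globin windows the TATA box letters began 27 to 30 bases before the RefSeq start on the gene's strand. The Alas2 window held the GATA motif, 3 adjoining CACCC boxes on the other strand, 2 overlapping matches to the TATA box on opposite strands and no CCAAT box. That of Bpgm, not shown, held the CCAAT box alone of the 4 motifs. GENCODE places some of these starts further upstream, so distances depend on the annotation, and a match of letters is not a binding site.

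All members had their highest levels in the 3 blood libraries 22, 23 and 24, lower levels in the 6 cardiac libraries, and cardiac-like or intermediate levels in Blood 21. The gap was narrowest for Slc4a1: the lowest of those 3 blood libraries was 2.3 times the highest cardiac library and 1.53 times the 3-read floor of MI 13. For Bpgm these ratios were 2.88 and 2.63. The level of Hbb-bs, the beta-globin gene with the most reads, was 168, 142 and 73.1 normalized counts in untreated hearts (13, 19 and 20) and 27.7, 85.0 and 53.6 in treated hearts (15, 17 and 18). In blood it was 177 (Blood 21), 3682 (Blood 22), 1084 (Blood + MSC 23) and 1718 (Blood + MSC 24). Blood 21 thus lay within 10 normalized counts of MI 13, the highest cardiac library, while the lowest of the other 3 blood libraries was 6.45 times that cardiac level.

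Hbb-bt, the second adult beta-globin gene, had 4, 10 and 5 reads in the untreated and 0, 0 and 4 reads in the treated cardiac libraries, or 33.6, 9.61, 2.57, 0, 0 and 2.71 normalized counts. In blood it had 14.1 (2 reads, Blood 21), 703 (Blood 22), 205 (Blood + MSC 23) and 459 (Blood + MSC 24) normalized counts. The value in Blood 21 lies under its floor of 3 reads (21.2 normalized counts), and only libraries 22 to 24 stood above every cardiac library.

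Hba-a1, the alpha-globin gene with the most reads, reached 58.8, 57.7 and 35.0 normalized counts in untreated and 14.9, 32.1 and 16.3 in treated hearts. Its blood levels were 276 (Blood 21), 3062 (Blood 22), 818 (Blood + MSC 23) and 1728 (Blood + MSC 24). It was 1 of 2 members, with Hbb-bs, for which all 4 blood libraries lay above all 6 cardiac libraries, as did 14% of all tested genes. Its copy Hba-a2 had 16.8, 10.6 and 3.60 normalized counts without and 4.06, 9.18 and 2.03 with MSC in the heart, and 14.1 (Blood 21), 430 (Blood 22), 112 (Blood + MSC 23) and 278 (Blood + MSC 24) in blood. For Hba-a2, Blood 21 with its 2 reads lay inside the cardiac range.

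Alas2, the erythroid form of the first enzyme of haem synthesis, had 1, 8 and 4 reads in untreated and 3, 1 and 3 reads in treated hearts. These are 8.40, 7.69 and 2.06 normalized counts without and 2.03, 2.30 and 2.03 with MSC. In blood it ran from 0 reads in Blood 21 to 1566 normalized counts in Blood 22, with 350 in Blood + MSC 23 and 1238 in Blood + MSC 24. The lowest of blood libraries 22 to 24 was 41.7 times the highest cardiac library, which rested on the single read of MI 13, and 13.9 times the 3-read floor of that library (25.2). At the level of Blood + MSC 23, the lowest of those 3, Blood 21 would have held 49.6 reads of Alas2.

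Slc4a1, the anion exchanger (band 3) of the red cell membrane, was found at 16.8, 8.65 and 1.54 normalized counts in untreated and at 2.03, 6.89 and 6.78 in treated hearts. It was lower in blood than the globins and differently ordered, with 7.07 (Blood 21), 92.3 (Blood 22), 38.6 (Blood + MSC 23) and 188 (Blood + MSC 24). Blood + MSC 24 held 2.04 times the level of Blood 22, while it held 0.467 to 0.653 times that level for the 4 globin genes.

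Bpgm makes 2,3-bisphosphoglycerate, the metabolite that lowers the oxygen affinity of haemoglobin. Hearts without MSC had 8.40, 16.3 and 12.9 normalized counts and those with MSC 11.5, 23 and 15.6, the narrowest cardiac spread in proportion to its mean (14.6 ± 5.0, SD, n = 6). In blood it had 7.07 (Blood 21, 1 read), 215 (Blood 22), 66.2 (Blood + MSC 23) and 233 (Blood + MSC 24), with Blood 22 and Blood + MSC 24 the highest. Blood 21 and MI 13 held 1 read each and cannot be ordered.

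**Figure D1:**
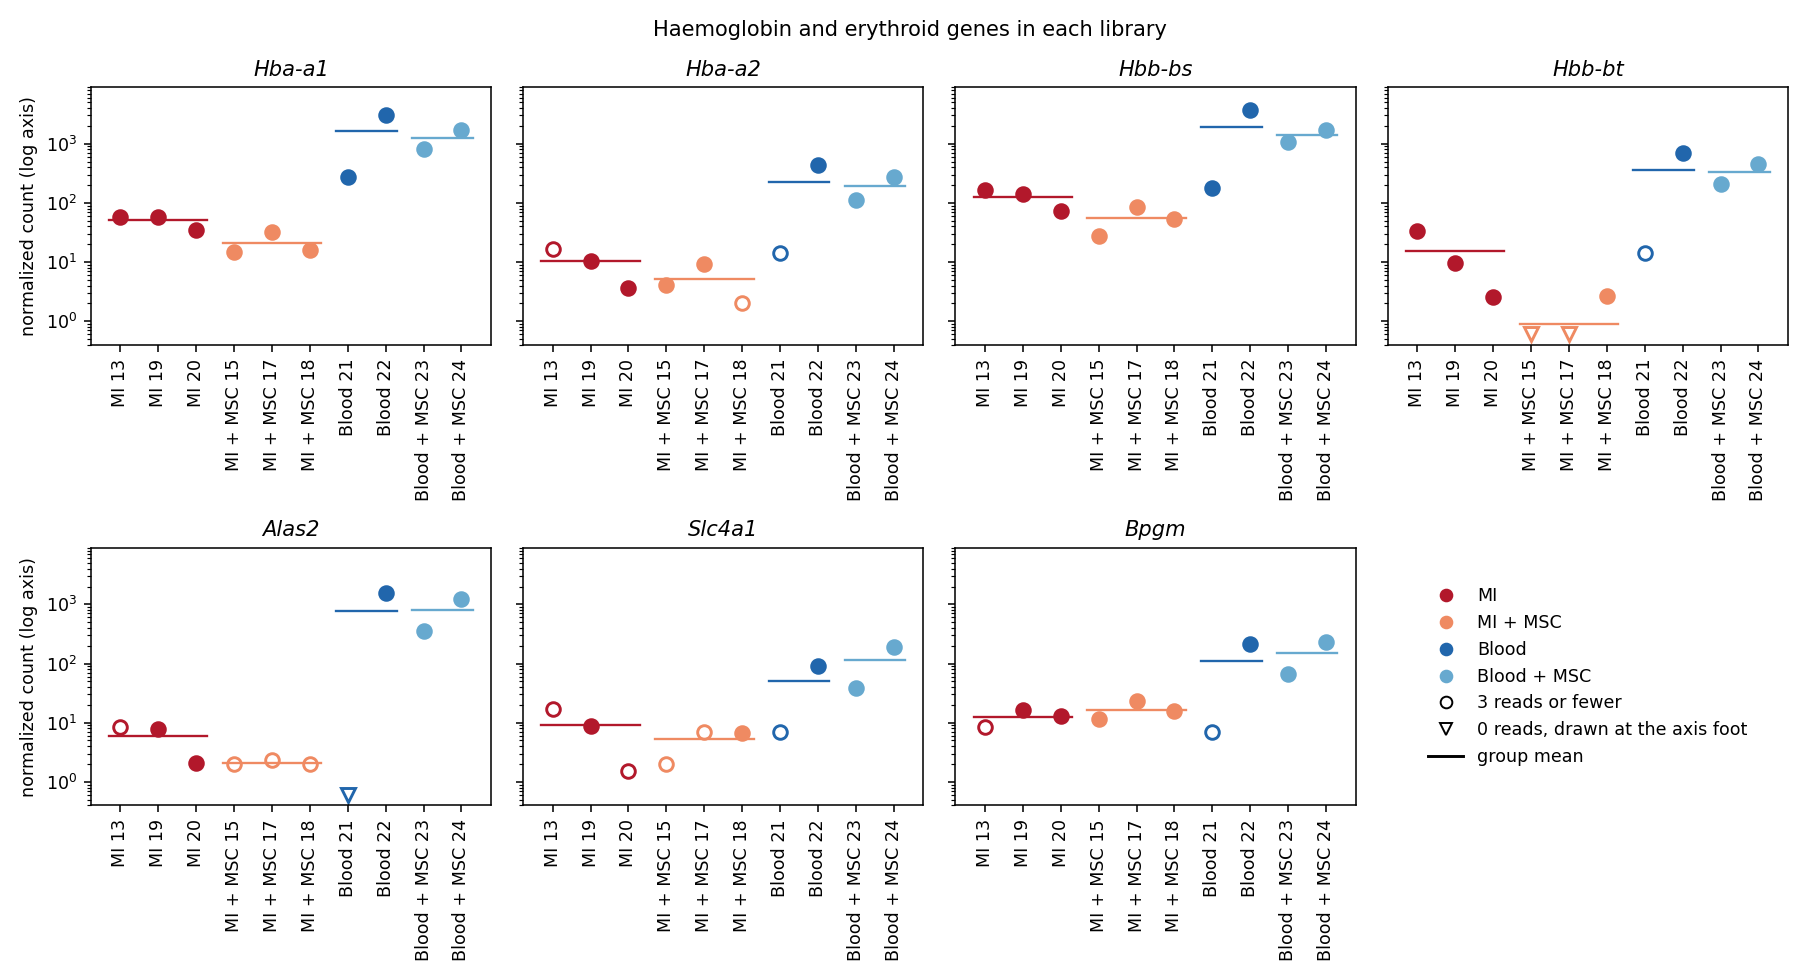
Normalized counts (log axis) of the 7 measured genes in each of the 10 libraries, with lines at the group means, open symbols for 3 reads or fewer, and triangles at the axis foot for 0 reads. Blood 22, 23 and 24 lie above all 6 cardiac libraries in each panel, and Blood 21 lies below them, at 0 for Alas2.

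The arrangement seen in the plot of levels by library, in which Blood 22, 23 and 24 lay above every cardiac library and above Blood 21, held for 7 of the 7 members and for 13.6% of all tested genes. The 21 pairs of members correlated across the 10 libraries with r from 0.82 to 0.98 (median 0.94) on the log2 scale, and with r from 0.85 to 0.99 without Blood 21. These correlations describe the contrast of 2 kinds of sample. They do not come from independent conditions, since the points share library, depth and tissue.

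Per kilobase of canonical transcript, Hbb-bs had the highest level of the 7 members in 9 of the 10 libraries and Hba-a1 in Blood 21. Which of them leads depends on the length used. The canonical transcripts have 664 bases for Hbb-bs and 738 for Hba-a1, but all annotated exons together cover 1631 and 971 bases. In Blood 22 the level per kilobase was 5545 normalized counts for Hbb-bs, 4148 for Hba-a1 and 769 for Alas2. Alas2 ranked 4 or 5 of 7 in blood libraries 22 to 24, 5 to 7 in the cardiac libraries and last in Blood 21. Slc4a1 was last in blood libraries 22 to 24, although 188 normalized counts in Blood + MSC 24 were 1119 reads. Below Hbb-bs and Hba-a1, neighbours in this order often rested on 3 reads or fewer in the heart. That held in 4 of 6 cardiac libraries for Alas2 and for Slc4a1 and in 2 of 6 for Hba-a2 and for Hbb-bt. Their ranks cannot be told apart there.

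The 4 globin genes together took 0.41% of all reads in Blood 22 (12122 reads, exact 95% binomial interval 0.403 to 0.417%), 0.289% in Blood + MSC 24 (0.285 to 0.293%) and 0.133% in Blood + MSC 23 (0.13 to 0.136%). In Blood 21 the share was 0.0253% (68 reads, 0.0196 to 0.0321%). The cardiac shares ran from 0.00309% in MI + MSC 15 (0.00241 to 0.00392%) to 0.0222% in MI 13 (0.0153 to 0.0312%). The intervals of Blood 21 and MI 13 overlapped, and no other blood interval met a cardiac one. These intervals cover counting error only.

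In normalized counts the globin sum was 7876 in Blood 22, 4182 in Blood + MSC 24, 2220 in Blood + MSC 23 and 480 in Blood 21, and 46.6 to 277 in the cardiac libraries. The lowest blood library was 1.73 times the highest cardiac library, and 8.0 times without Blood 21. With scaling to library size that ratio was 1.14.

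Within the globin reads, beta-globin made up 72.7, 69.0 and 66.2% in untreated and 59.4, 67.3 and 75.5% in treated hearts. In blood the beta share was 39.7% (Blood 21), 55.7% (Blood 22), 58.1% (Blood + MSC 23) and 52.1% (Blood + MSC 24), so that the cardiac mean of 68.3 ± 5.58% (SD, n = 6) stood beside a blood mean of 51.4 ± 8.17% (SD, n = 4). The libraries of both tissues did not overlap, but by a margin smaller than counting error: the interval of MI + MSC 15 (69 globin reads) ran from 46.9 to 71.1% and took in 3 of the 4 blood shares. Summing over each pair, this share does not depend on how counted reads were split between copies. It can still depend on whether reads matching both copies were counted, which was not tested. The 100-base stretches shared with the other copy differed between the pairs, at 70.1% for Hba-a1 and 58.6% for Hbb-bs.

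Of the alpha-globin reads, Hba-a1 took 77.8 to 90.7% in the heart and 86.2 to 95.1% in blood, and of the beta-globin reads Hbb-bs took 83.3 to 100% in the heart and 78.9 to 92.6% in blood. Both ranges overlapped between the tissues. In MI + MSC 15 and 17 all beta-globin reads, 41 and 37, were given to Hbb-bs.

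Alas2 was also low relative to the globins in the heart. Its share of Alas2 and globin reads was 1.77 to 4.17% in the 6 cardiac libraries (2.78 ± 0.93%, SD, n = 6), and 16.6% in Blood 22 (interval 16 to 17.2%), 13.6% in Blood + MSC 23 (13 to 14.3%) and 22.8% in Blood + MSC 24 (22.4 to 23.3%). Blood 21 had 0 Alas2 reads beside 68 globin reads, so that the interval of its share, 0 to 5.28%, covered the cardiac shares. The interval of MI 13, with 1 Alas2 read, reached 15.3% and met that of Blood + MSC 23. The shares of beta-globin, of each copy and of Alas2 were chosen after their values were seen and are given as descriptions without a test.

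**Figure D2:**
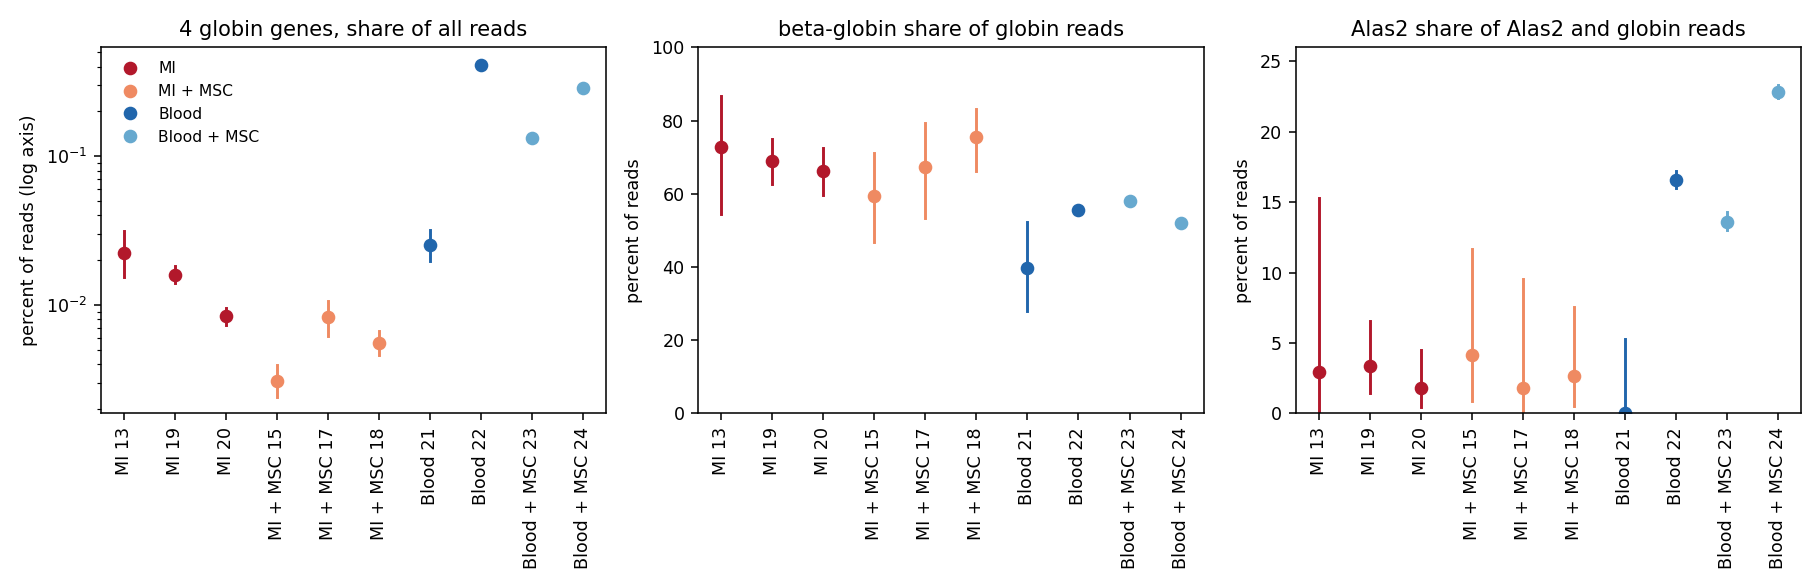
Share of all reads taken by the 4 globin genes (log axis), beta-globin share of globin reads, and Alas2 share of Alas2 and globin reads in each library, in percent, with exact 95% binomial intervals. The Alas2 share was 13.6 to 22.8% in Blood 22, 23 and 24 and at most 4.17% elsewhere.

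The comparison of cardiac with blood cells asks how Ly6G+ cells from the infarcted heart differ from circulating ones. Averaged over MSC treatment, all 7 members were lower in cardiac than in blood libraries (limma, Benjamini-Hochberg adjusted p under 0.05 and a log2 fold change of at least 0.5 in size), beside 18.1% of all tested genes called lower. Log2 fold changes, on the log2(normalized count + 2) scale, were largest for Alas2 (-5.12 ± 1.36, SE, limma adjusted p = 0.0112), Hbb-bt (-4.98 ± 0.91, limma adjusted p = 0.00143) and Hba-a1 (-4.97 ± 0.55, limma adjusted p = 6.48e-05). They were -3.85 for Hba-a2, -3.72 for Hbb-bs, -2.70 for Slc4a1 and -2.23 for Bpgm, with limma adjusted p of 0.0271 or less. The median of the members was -3.85 and that of all tested genes 0.12.

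Between the untreated groups, MI and Blood, 2 of the 7 members passed (13.5% of all tested genes were called lower): Hba-a1 fell by 4.17 (SE 0.78, limma adjusted p = 0.00279) and Hbb-bs fell by 2.73 (SE 0.96, limma adjusted p = 0.046). The other 5 had log2 differences of -1.65 to -3.11 and wide intervals, such as -7.14 to 1.31 for Alas2, as the Blood group held Blood 21 and Blood 22. Without Blood 21, 7 of the 7 were called lower (13.8% of all tested genes). Without any other single library, 1 of the 7 was called (9.78 to 12.4% of all tested genes), and without Blood 22 the estimates of Alas2 and Bpgm turned to 1.89 and 0.64.

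Between the treated groups, MI + MSC and Blood + MSC, 6 of the 7 members were called lower, against 5.85% of all tested genes. The log2 fold changes ran from -3.69 for Slc4a1 (limma adjusted p = 0.0346) over -4.71 for Hbb-bs and -4.78 for Hba-a2 to -5.76 for Hba-a1 (limma adjusted p = 0.0012), -6.86 for Hbb-bt and -7.33 for Alas2. Bpgm, at -2.81 (SE 1.02), missed the threshold with a limma adjusted p of 0.0865. The count was 1 without Blood + MSC 24 (1.09% of all tested genes called lower), 2 without Blood + MSC 23 (0.348%) and 3 without MI + MSC 18 (2.12%), and a lone library in a group is then assumed to vary like the others.

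With edgeR and with DESeq2 on recovered reads, 7 of the 7 members were called lower in all 3 of these comparisons. The share of all genes called lower by edgeR was 13.8% for MI against Blood, 14% for MI + MSC against Blood + MSC and 22.9% averaged over MSC, and by DESeq2 it was 9.25%, 5.11% and 9.4%. The methods of the study describe lysis of red cells for the heart digest, and the sources used here give none for blood. This step, tissue and enzymatic digestion cannot be told apart.

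**Figure D3:**
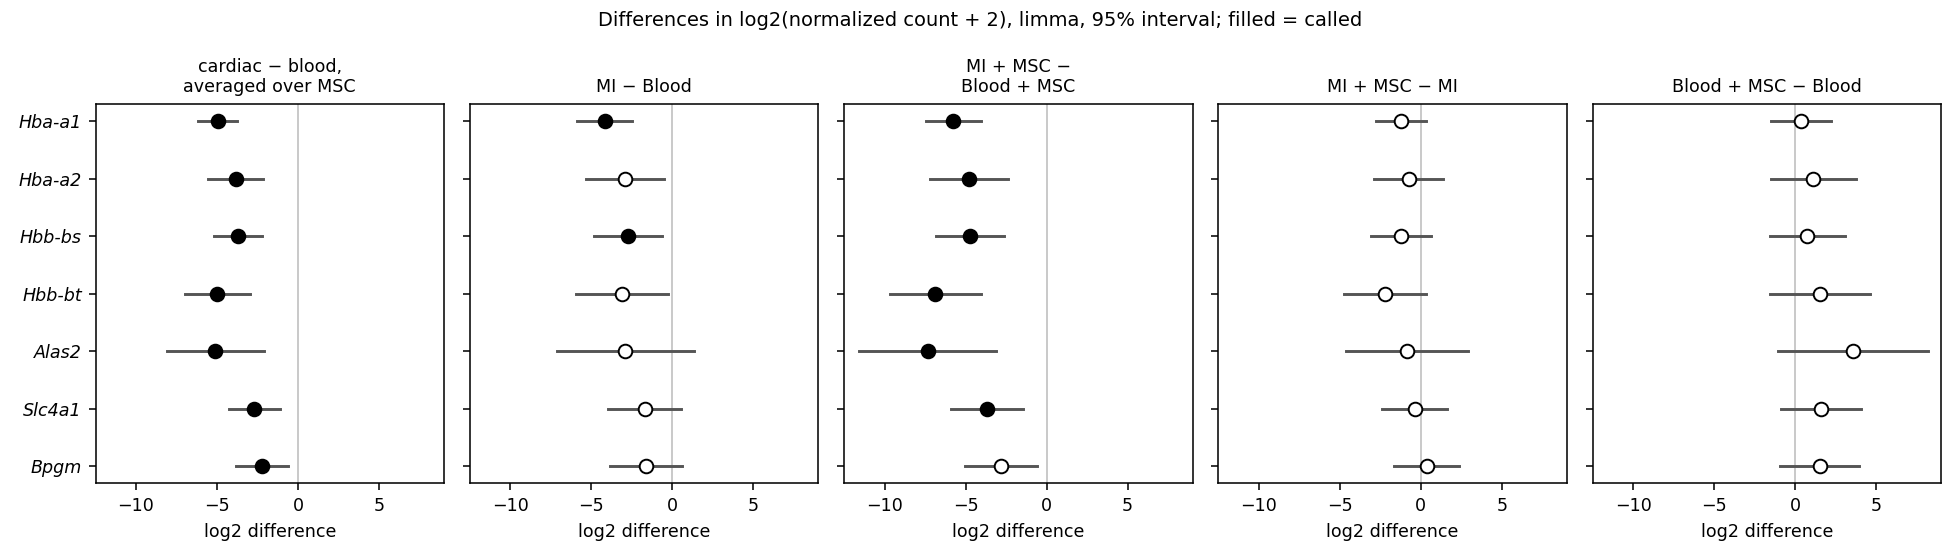
Differences in log2(normalized count + 2) for the 7 members in 5 comparisons, with 95% intervals from limma, filled where called. All 7 are called lower in the heart when averaged over MSC, 2 between MI and Blood, 6 between MI + MSC and Blood + MSC, and 0 in either comparison of MSC treatment.

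In the heart, no member passed for MSC treatment. Between MI + MSC and MI limma called 0 of the 7 members and 0.0% of all tested genes, with 0 members and 925 genes at an unadjusted p under 0.05. The estimates were -1.23 for Hba-a1 (95% interval -2.75 to 0.30), -1.23 for Hbb-bs (-3.10 to 0.65), -2.22 for Hbb-bt (-4.74 to 0.30), -0.85 for Alas2, -0.76 for Hba-a2, -0.39 for Slc4a1 and 0.35 for Bpgm. The intervals of the globins take in both no difference and falls of more than 2 on the log2 scale. Of the 7 members, Hba-a1 was the 1 whose 3 MI libraries all lay above the 3 MI + MSC libraries, which 9.6% of all tested genes did.

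Endothelial markers were ordered in the same way. The 10 markers summed to 2128 to 2355 normalized counts without MSC and 488 to 944 with MSC, and the muscle markers to 8338 to 24896 and 3265 to 12984, which overlap. Their part in the globin levels of the heart was not tested. edgeR called 0 members in this comparison (0.0545% of all genes) and DESeq2 also 0 (0.883%). Hbb-bt had a DESeq2 unadjusted p of 0.0384 (DESeq2 adjusted p = 0.529).

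In blood, limma called 0 of the 7 members between Blood + MSC and Blood (0.0% of all tested genes), with 0 members and 848 genes at an unadjusted p under 0.05, and edgeR and DESeq2 called 0 as well (0.448% and 1.18% of all genes). On the log2(normalized count + 2) scale, limma estimates were 3.56 for Alas2 (95% interval -1.06 to 8.18), 0.75 for Hbb-bs (-1.54 to 3.05), 0.37 for Hba-a1 (-1.50 to 2.24), 1.10 for Hba-a2, 1.53 for Hbb-bt, 1.59 for Slc4a1 and 1.52 for Bpgm. Fitted to recovered reads, Alas2 was at 0.06 with edgeR and 0.02 with DESeq2, and Bpgm at 0.27 and 0.33. Both count fits gave negative estimates for the 4 globin genes. The limma estimates rested on which Blood library was kept. Without Blood 22, 6 of the 7 members were called higher in Blood + MSC (9.43% of all tested genes), from 2.10 for Hba-a1 to 8.37 for Alas2. Without Blood 21, 0 were called and all 7 estimates were negative, from -0.10 for Slc4a1 to -1.43 for Hbb-bs.

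The interaction of MSC treatment with tissue was called for 0 of the 7 members (0.0% of all tested genes by limma, which gave 838 genes and 0 members an unadjusted p under 0.05), with limma adjusted p of 0.63 to 0.77. Without Blood 22 it was called for 6 of the 7, beside 9.25% of all tested genes.

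Marker genes of other cells differed between the blood libraries beside the members. Summed platelet markers were 31929 normalized counts in Blood 21, where the globin sum was lowest, and 1699, 1297 and 1232 in Blood 22, 23 and 24. The 5 B cell markers summed to 28.3, 318, 86.7 and 382 in Blood 21, 22, 23 and 24, and the globin sums were 480, 7876, 2220 and 4182 in the same order. Neutrophil markers did not follow the globins, at 44788 and 53435 in Blood 21 and 22 and 23725 and 16764 in Blood + MSC 23 and 24. Nor did macrophage markers, at 22122 and 14069 in Blood 21 and 22 and 10725 and 12108 in Blood + MSC 23 and 24. The part of other cells in the member levels was not tested. At the level of Blood + MSC 23, Blood 21 would have held 116 reads of Hba-a1 and 153 of Hbb-bs, and it held 39 and 25.

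**Figure D4:**
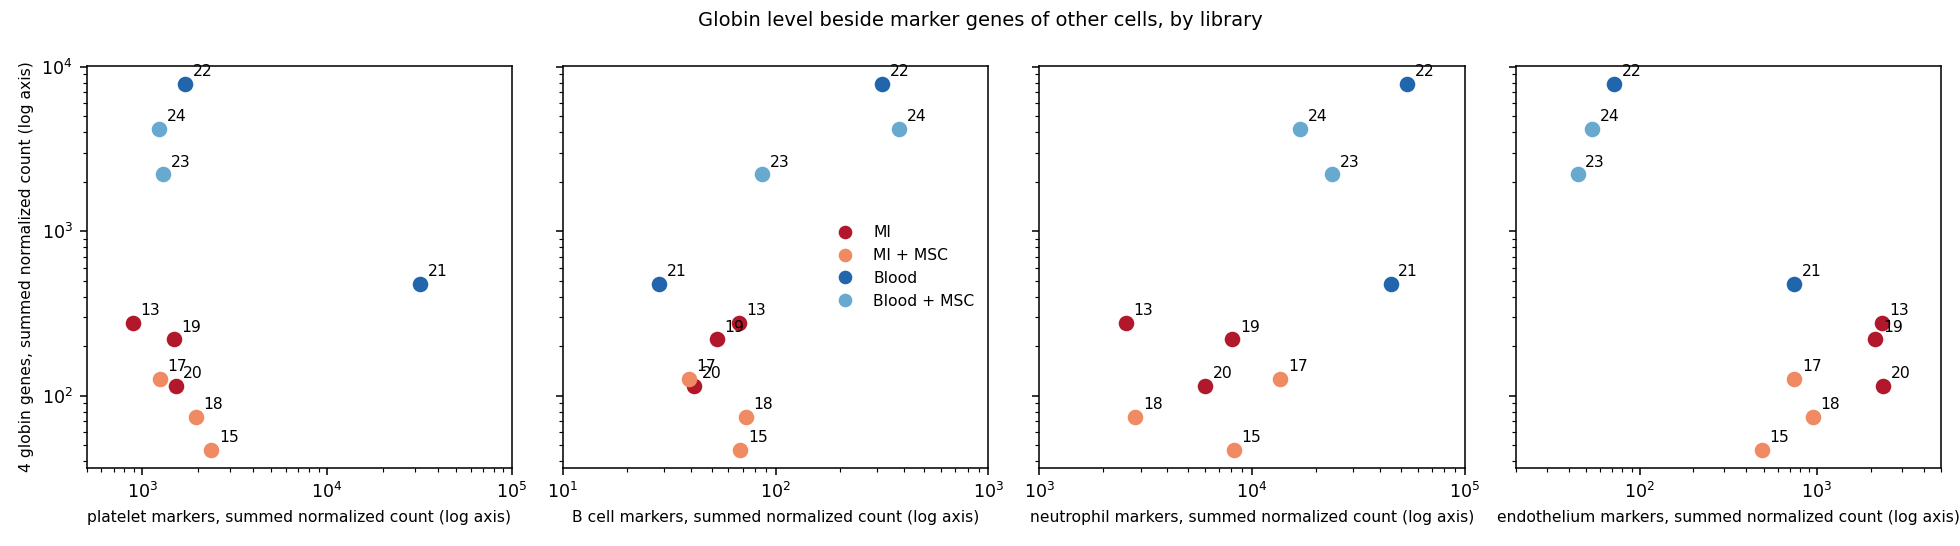
Summed normalized count of the 4 globin genes against that of platelet, B cell, neutrophil and endothelial markers in each library, numbered by library, on log axes. Blood 21 has 31929 normalized counts of platelet markers and 480 of globins, while Blood 22 has 1699 and 7876.

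Other genes of the red cell programme were followed on 6 lists with 56 genes, of which 52 had a row and 33 were tested. In cardiac against blood libraries averaged over MSC, 8 of the 33 were called lower and 7 higher, beside 18.1% and 25.3% of all tested genes, with a median of -0.29 against 0.12 for all genes. These genes thus did not share the single direction of the members. In MI against Blood 7 were called lower and 6 higher (13.5% and 21.2% of all tested genes), and in MI + MSC against Blood + MSC 3 and 1 (5.85% and 8.23%). For MSC treatment 0 were called in the heart and 0 in blood by limma, with 2 and 1 at an unadjusted p under 0.05.

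Of 7 further haem synthesis enzymes 6 were tested, and 3 were lower and 1 higher in the heart. Fech inserts iron into the ring and was lower by a log2 fold change of -1.68 (SE 0.35, limma adjusted p = 0.00322), with 33.6 to 61.7 normalized counts in cardiac libraries and 77.7, 226, 107 and 284 in Blood 21, 22, 23 and 24. Ppox (-1.48) and Urod (-1.07) also catalyse later steps and were lower. Cpox, the enzyme between Urod and Ppox, was higher in the heart (1.55, limma adjusted p = 0.00154), with 20.3 to 35.5 normalized counts there and 7.07 to 10.1 in blood.

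Of 16 red cell membrane and skeleton genes 8 were tested, and 1 was lower and 3 higher in the heart. Epb41, the skeleton protein 4.1R, was lower (-0.85, limma adjusted p = 0.0257), with 413 normalized counts in Blood + MSC 24 and 127 in Blood 21. Blood 21 lay inside the cardiac range of 98.7 to 185. The difference was -0.23 between the untreated groups (limma adjusted p = 0.664) and -1.47 between the treated groups (limma adjusted p = 0.0277). Ank1 (3.02), Tmod1 (2.09) and Sptb (1.28), which are also expressed in muscle, were higher in the heart. Ank1 had 109, 96.1 and 26.3 normalized counts in untreated hearts, 16.9, 41.3 and 35.2 in treated hearts and 0, 3.9, 3.68 and 13.3 in Blood 21, 22, 23 and 24. Muscle markers stood at 3265 to 24896 normalized counts in cardiac and 22.6 to 63.6 in blood libraries beside these values, and their part was not tested.

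Of 9 genes for transcription factors and the erythropoietin receptor 5 were tested and 1 was called. Nfe2, a factor of red cell precursors and platelet-forming cells, was lower in the heart by -3.59 (SE 0.45, limma adjusted p = 0.000128). It was ordered unlike the members in blood: 841 normalized counts in Blood 21, 545 in Blood 22, 463 in Blood + MSC 23 and 264 in Blood + MSC 24, against 13.6 to 94.1 in the heart. Among the 4 blood libraries, the one with the most platelet marker RNA thus had the most Nfe2 and the least globin. In Blood 22, 23 and 24 the platelet marker sums (1232 to 1699) lay within the cardiac range (891 to 2361), though Nfe2 was higher than in the heart. Neutrophil marker sums were higher in all blood libraries (16764 to 53435) than in cardiac ones (2547 to 13564). The part of these cells in the Nfe2 level was not tested.

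Of 11 genes of iron uptake and reticulocyte maturation 9 were tested, and 2 were lower and 3 higher in the heart. Slc25a37 (mitoferrin 1, the mitochondrial iron importer) was lower by -1.63, with 212, 694, 283 and 579 normalized counts in Blood 21, 22, 23 and 24, and Bnip3l, which serves the removal of mitochondria, by -1.72, with 1229, 981, 558 and 675. Tfrc, the transferrin receptor, was higher in the heart by 0.88, Abcb10 by 1.43 and Slc11a2, an iron transporter, by 1.61. Of 7 red cell enzymes 5 were tested: Blvrb, a biliverdin reductase, was lower averaged over MSC (-0.99, limma adjusted p = 0.0389) and Gpx1, a peroxidase, in MI against Blood alone (-1.37, limma adjusted p = 0.0332). For Gpx1 the difference was -0.03 between the treated groups (limma adjusted p = 0.971) and -0.70 averaged over MSC (limma adjusted p = 0.0876). Of 6 embryonic and minor globins 2 had a row and none passed the filter on low values, Hbq1a with a mean of 2.54 and Hbq1b with 1.14 normalized counts.

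**Figure D5:**
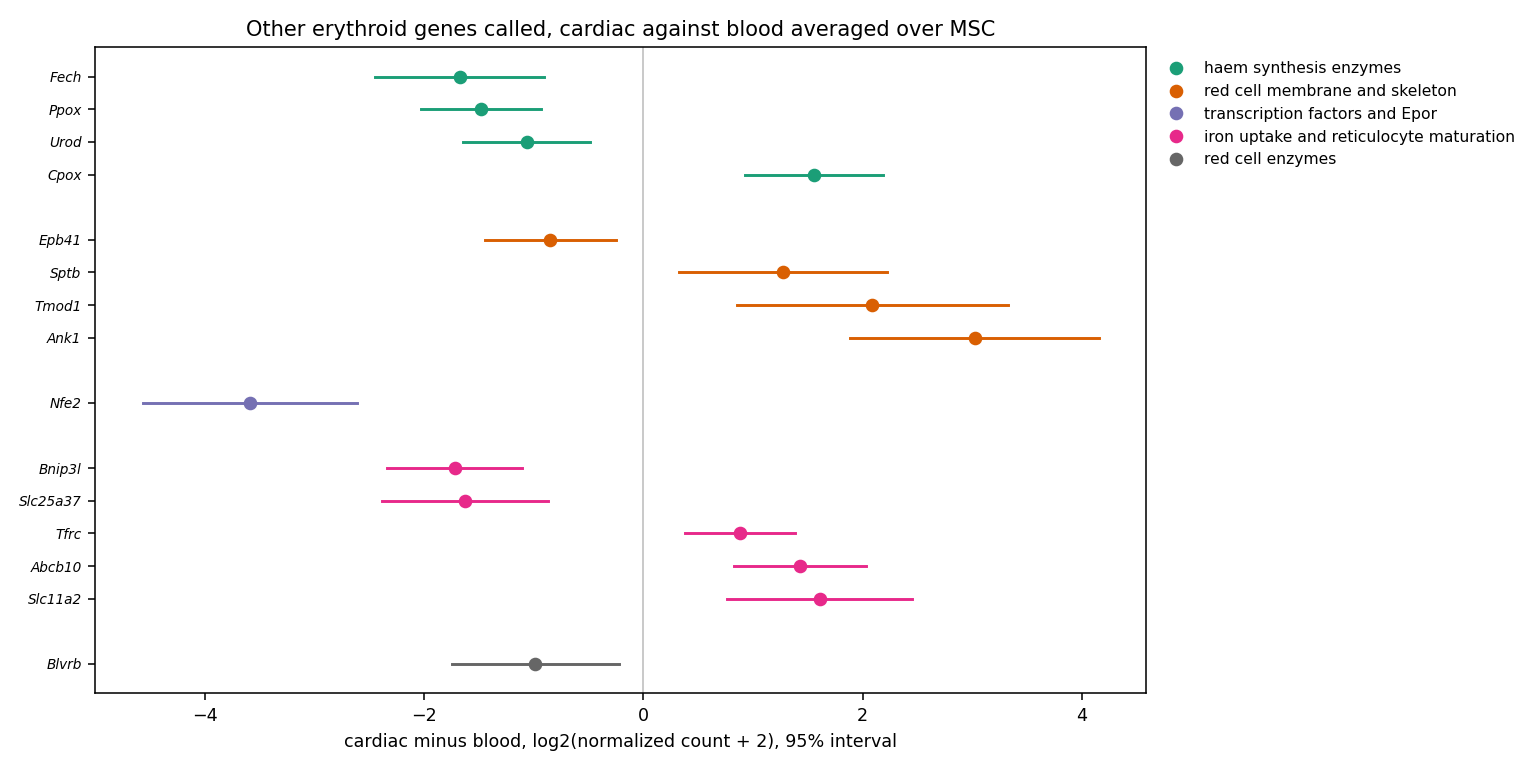
Cardiac minus blood difference in log2(normalized count + 2), averaged over MSC, with 95% intervals from limma for the list genes that were called, coloured by list. Of these, 8 lie below 0, led by Nfe2 at -3.59, and 7 above, led by Ank1 at 3.02.

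Outside these lists, the 5 tested genes most alike in pattern to the mean of the 7 members over the 10 libraries were Rps15a (Pearson r = 0.979), Plac8 (0.976), C2cd5 (0.976), Ubr2 (0.974) and Znhit1 (0.974). Rps15a, a protein of the small ribosomal subunit, had 19.2 to 42.0 normalized counts in the heart, 28.3 in Blood 21 and 402, 262 and 301 in Blood 22, 23 and 24. Plac8 had 10.8 to 21.2 in the heart, 42.4 in Blood 21 and 417, 163 and 236 in the other blood libraries. The remaining 3 changed less: C2cd5 had 27.0 to 42.0 in the heart and 42.4, 87.1, 68.6 and 73.9 in Blood 21, 22, 23 and 24. These genes were ranked by r on the log2 scale and carry no test.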

How the data were processed

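The authors trimmed reads with Trimmomatic, removed duplicates with Picard, mapped to GRCm39 with STAR, counted stranded reads per gene with featureCounts and left out mitochondrial reads, per the submitters' processing notes and the methods. The deposited values are signal values: the authors scaled each library's read counts by a DESeq2 size factor. In every library 100% of them were whole multiples of 1 read (within 0.1 reads), and recovered reads followed from that step. The table named for raw counts holds the same values and was not used. Tests used limma (3.58.1, intensity trend) on log2(normalized count + 2), with 1 mean per group over 10 libraries and a filter that kept genes averaging 10 normalized counts or more. A call needed a Benjamini-Hochberg adjusted p under 0.05 and a log2 fold change of 0.5 in size, the interaction the adjusted p alone. Fold changes on this scale tend to understate the change of low genes, but where 1 read is worth more than the pseudocount (8.40 in MI 13, 7.07 in Blood 21) a library at 0 can enlarge it. edgeR (4.0.16, quasi-likelihood) and DESeq2 (1.42.0) on recovered reads, other pseudocounts, filters and scalings, and leaving out libraries were alternatives. limma, edgeR and DESeq2 were also run on simulated counts with a known change in MI + MSC, scored for MI + MSC against MI alone. That simulation held no outlying library like Blood 21 and does not bear on the comparisons with blood. GENCODE held 27906 of 28185 identifiers and may differ from the authors' annotation. Floors are 3 reads. Named from each other list were genes called in a comparison, up to 6, or else the 3 with the highest mean, and the 5 genes most alike to the members. Members and lists were chosen with earlier results of these data known. R 4.3.3, Python 3.11.15, scipy 1.17.1 and matplotlib 3.10.9 were used. One result on the lists is not reported here.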

Additional observations from a re-analysis of the deposited data

How the results depend on the processing

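The members tested stayed lower in cardiac than in blood libraries under every alternative when averaged over MSC (5 of 5 called with copies summed), with 5 to 7 of 7 called as single libraries were left out. Between MI and Blood 2 members were called, but 1 with a pseudocount of 1, a mean of at least 20 or library size scaling, and 7 with edgeR, DESeq2 or without MI 13 and Blood 21, and 1 to 7 as single libraries were left out (7 without Blood 21). Between MI + MSC and Blood + MSC that range was 1 to 7. It was 0 to 6 for Blood + MSC against Blood and for the interaction, with 6 in both without Blood 22, where Blood 21 stands alone and is assumed to vary like the other groups. The globin ratio of lowest blood to highest cardiac library was 1.14 with library size scaling and 1.73 to 8.0 as single libraries were left out. With a single library left out, the log2 fold change between Blood + MSC and Blood ran from -1.36 to 2.10 for Hba-a1, -1.27 to 3.47 for Hba-a2, -1.43 to 2.94 for Hbb-bs, -1.19 to 4.26 for Hbb-bt, -1.25 to 8.37 for Alas2, -0.10 to 3.28 for Slc4a1 and -0.78 to 3.81 for Bpgm, negative in all 7 without Blood 21 and in Hba-a1 also without Blood + MSC 24 (-0.17). Without MI 13 and Blood 21 it was -1.36 for Hba-a1, -1.27 for Hba-a2, -1.43 for Hbb-bs, -1.19 for Hbb-bt, -1.25 for Alas2, -0.10 for Slc4a1 and -0.78 for Bpgm. With edgeR it was -0.31 for Hba-a1, -0.25 for Hba-a2, -0.38 for Hbb-bs and -0.11 for Hbb-bt, and with DESeq2 -0.40 for Hba-a1, -0.21 for Hba-a2, -0.47 for Hbb-bs and -0.12 for Hbb-bt. For MI against Blood, leaving out single libraries gave -7.72 to 1.89 for Alas2 and -3.94 to 0.64 for Bpgm, above 0 without Blood 22. For MI + MSC against MI it gave -1.06 to 0.15 for Slc4a1, which was 0.15 without MI 13 and Blood 21. Other alternatives turned no member's sign in these comparisons or averaged over MSC. The interaction estimate, negative in all 7 members, turned without Blood 21 for Alas2 (0.40), Bpgm (1.13), Hba-a1 (0.14), Hba-a2 (0.51) and Hbb-bs (0.20), and without MI 13 and Blood 21 also for Slc4a1 (0.25). Of 690 fold changes in the comparisons other than the interaction, 595 kept direction and call, 34 gained and 34 lost the call and 27 turned. Many of these could not turn, because leaving out a library outside the comparison, or changing the filter, leaves the limma estimate as it was. The count of kept directions thus overstates how far direction was tested. Low depth limits MI 13 and Blood 21, where 3 reads are 25.2 and 21.2 normalized counts. The cause of these shifts was not tested. No paired analysis was possible because the groups share no replicate numbers.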
